A study of Bos taurus with 29 samples.

Results

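Bovine digital dermatitis is a contagious inflammation of foot skin, and M2 is its acute, ulcerated stage. M2 lesion skin was compared here with M0 control skin over all 11047 genes of the deposited table that sets these groups against each other, of 11479 genes listed in any of the study's 5 tables. The comparison uses 10 of 29 libraries, each from 1 skin biopsy of a Holstein-Friesian animal, a dairy breed. The 5 M2 libraries are labelled as disease stage M2 from the site of a skin lesion, and all M2 samples came from dairy farms. The 5 M0 libraries are labelled as control skin taken above the interdigital cleft, the gap that separates the claws, and were collected after slaughter. Disease, body site, and collection on a farm or after death therefore cannot be told apart in any difference between M2 and M0. No label gives an age, a treatment, a farm or an animal number, and none says that the samples of a group are separate animals, so the p-values measure the spread between these samples. Libraries of M1 lesions (5), M3 lesions (5) and M4.1 lesions (4) enter a direct comparison with M2 at the end, and 2 of the M1 libraries were collected at the slaughterhouse.

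The disease is associated with spirochaetes of the genus Treponema that invade the epidermis of the foot. An ulcer breaches the layered epidermis, in which dividing basal keratinocytes mature into a cornified barrier, and wounded keratinocytes switch to a repair programme with their own keratins. Injured skin cells release IL-1 cytokines, prostaglandins and chemokines, and chemokines of the CXCR2-binding kind draw neutrophils from the blood into the wound. Hairy bovine skin also holds follicles, sebaceous glands and apocrine sweat glands, whose products are lipids, secretoglobins and lipocalins.

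Over the genes of the table the M2 libraries held 3456250 to 5403987 counts and the M0 libraries 4350950 to 5338915. The first principal component of the log2 levels held 63.9% of the variance, with the M2 libraries at 49.5 to 83.7 and the M0 libraries at -72 to -59.7. M2 replicate 5 stood apart from the other M2 libraries on the second component (8.36% of the variance), at -62.3 against -8.91 to 26.4 for all other libraries of both groups. Results that turn on it are given with and without it. Genes encoded in the mitochondrial DNA took 5.62% to 7.09% of the counts in M2 and 9.51% to 11.3% in M0. The summed level of 40 small non-coding RNA genes was 270.4 to 1944 CPM in M2 and 2037 to 10324 CPM in M0, where CPM is the count relative to the library total after TMM scaling. The part of these differences in the results below was not tested.

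A gene was called where the edgeR quasi-likelihood test gave a Benjamini-Hochberg adjusted p under 0.05 over all 11047 genes. In M2 against M0, 2287 genes (20.7%) were higher and 2398 (21.7%) lower, while 6362 were not called. Of the called genes, 280 were over 4-fold higher in M2 and 566 over 4-fold lower. The groups did not overlap in any library for 1648 higher and 1641 lower genes. The median log2 fold change of all genes was -0.0431. Each listed gene was over 1 CPM in at least 5 of the 10 libraries. The 37 genes with no M0 library over 1 CPM were thus listed through M2 alone, and the 134 with no M2 library over 1 CPM through M0 alone. Of these, 37 and 133 were called, which the listing itself favours. CXCL8, CXCL5, IL6, A2ML1, SLPI, GAL, MMP13, APOBEC3Z1, RETN, PRSS35 and the elafin-like gene LOC100850808 below are of the first kind. CCL26, BDA20, MGC151921, MUCL1, KRTAP12-2 and CYP2B6 are among the second. Some lists hold genes of either kind. The levels of such genes are given as description. Their calls, p-values and part in a list's count carry no weight. In whole biopsies, fewer cells of a type and less RNA per cell cannot be told apart, and this holds for each gene group below.

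**Figure D1:**
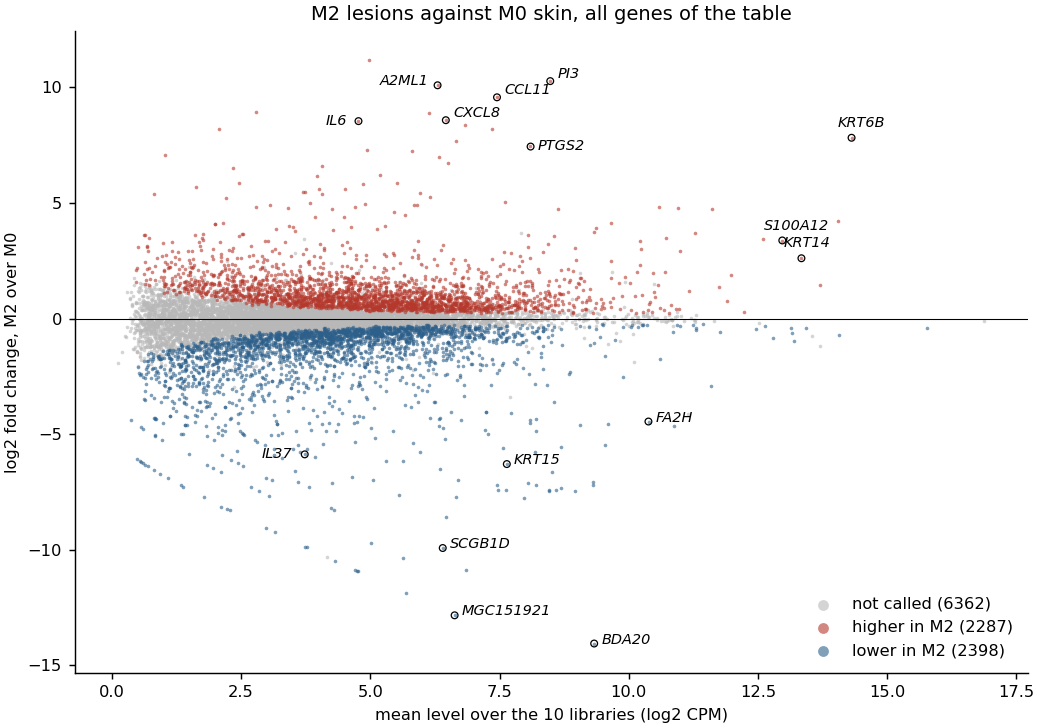
Log2 fold change of M2 over M0 for 11047 genes (vertical axis) against the mean level over the 10 libraries (log2 CPM, horizontal axis), coloured by call. The 2287 higher genes reach beyond 10 with PI3 and A2ML1, the 2398 lower genes reach -14.05 with BDA20, and KRT6B and KRT14 are far to the right, among the most abundant transcripts.

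Neutrophil-attracting chemokines were among the largest rises. CXCL8 (ENSBTAG00000019716), the founding neutrophil attractant of its family, had 376, 114, 188, 183 and 16.3 CPM in M2 replicates 1 to 5, against 0.352, 0.215, 0.469, 0.338 and 0.801 CPM in M0 replicates 1 to 5. Every M2 library lay above every M0 library, and M2 replicate 5 was the lowest of its group. The log2 fold change was 8.58 ± 1.02 (approximate SE, edgeR adjusted p = 0.00022). CXCL2 (ENSBTAG00000027513) had 474, 114, 339.6, 175 and 22.7 CPM in M2 and 1.76, 0.429, 0.234, 0.338 and 0.4 CPM in M0, a log2 change of 8.36 ± 1.07. GRO1, the bovine CXCL1 gene, had 16.6 to 356 CPM in M2 and 0.601 to 1.23 CPM in M0 (7.69 ± 0.94), and CXCL5 had 7.79 to 119.6 CPM in M2 and 0 to 0.644 CPM in M0 (7.31 ± 1.08). CXCL3, the most abundant of them in control skin, had 41 to 160.3 CPM in M2 and 12 to 21.3 CPM in M0 (2.74 ± 0.32). In all of these genes the groups were apart and M2 replicate 5 was the lowest M2 library. The decoy receptor ACKR1, which binds chemokines on venules, had 8.52 to 35 CPM in M2 and 14.6 to 43.1 CPM in M0 and was not called (-0.92 ± 0.45, edgeR adjusted p = 0.13; without M2 replicate 3, -1.35 and 0.017). Of the 6 genes on this list that have a row, 5 were higher and 0 lower, against 20.7% and 21.7% of all genes, with a median log2 change of 7.50. Among these 5, CXCL8 and CXCL5 had no M0 library over 1 CPM and were listed through M2 alone. Limma-voom, run as an alternative, called 1 of the 5 and gave CXCL8, CXCL2, GRO1 and CXCL5 adjusted p of 0.069 to 0.095. CXCL2, CXCL3 and GRO1 are close in sequence and may share reads. The receptor genes CXCR1 and CXCR2 had no row in the table used here.

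IL6 (ENSBTAG00000014921), a cytokine of the acute phase response, had 103, 44, 84.1, 29.3 and 8.81 CPM in M2, against 0, 0.429, 0, 0 and 0.2 CPM in M0. The ratio of M2 to M0, with 3 counts in M0, was 480.1 (95% counting interval 164 to 2331, which covers counting error only). CSF3, the granulocyte growth factor, had 4.32, 2.18, 7.74, 2.36 and 0 CPM in M2, against 1.06, 0.429, 0, 0.507 and 0 CPM in M0. Its groups overlapped because M2 replicate 5 held no count, and the log2 change was 2.91 ± 0.85 (edgeR adjusted p = 0.014; limma-voom, 0.066). The receptor CSF3R rose by 2.69 ± 0.66. In the same list of IL-6 family cytokines, colony-stimulating factors and STAT3 targets, the receptor genes LIFR (-2.11 ± 0.46) and IL6ST (-0.80 ± 0.24) and the kinase JAK1 (-0.41 ± 0.12) fell. Over the list, 4 of 14 genes were higher and 4 lower (28.6% each), against 20.7% and 21.7% of all genes. The fit of all 29 libraries, which does not hold IL6, CSF3 or CSF3R, had 1 of 11 higher.

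**Figure D2:**
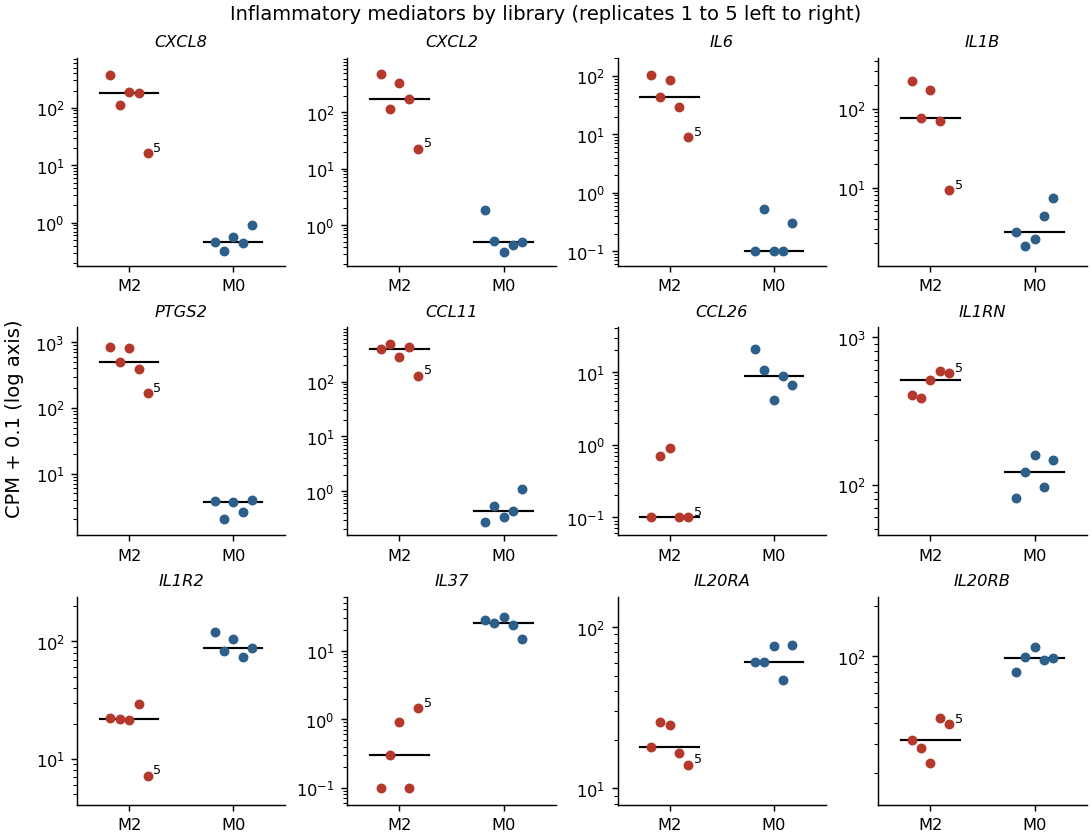
Level of 12 mediator genes in each library (CPM plus 0.1, log axis), M2 left and M0 right, replicates 1 to 5 from left to right within a group, with a bar at the median and M2 replicate 5 marked. CXCL8, CXCL2, IL6 and IL1B are high in M2 with replicate 5 lowest, PTGS2 and CCL11 are far apart between the groups, and CCL26, IL1R2, IL37, IL20RA and IL20RB are low in every M2 library.

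The IL-1 family moved in both directions. IL1B, a cytokine that needs cleavage to become active, had 223, 76.1, 174, 70.8 and 9.15 CPM in M2, against 2.64, 1.72, 2.11, 4.22 and 7.21 CPM in M0. The groups did not overlap, but M2 replicate 5 came close to M0 replicate 5 (log2 change 4.93 ± 0.87, edgeR adjusted p = 0.002). IL1A, an alarm cytokine of keratinocytes, had 132, 63.2, 81.4, 59.5 and 27.1 CPM in M2, against 7.22, 2.57, 3.75, 1.86 and 7.01 CPM in M0 (4.01 ± 0.51). IL33, an alarm cytokine stored in nuclei, had 95.2 to 505 CPM in M2 and 29.4 to 65 CPM in M0 (2.57 ± 0.45). IL1RN, which encodes the receptor antagonist, was abundant in both groups, with 386 to 586 CPM in M2 and 80.6 to 159 CPM in M0 (2.03 ± 0.19). IL18 rose by 1.5 ± 0.38. The decoy receptor IL1R2 had 22.2, 21.8, 21.4, 29.3 and 7.11 CPM in M2, against 120.4, 83.4, 105, 74.1 and 87.5 CPM in M0 (-2.19 ± 0.28), so every M2 library lay below every M0 library.

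The family members IL37 and IL1F10 (IL-38), which dampen inflammation in human skin, were nearly without counts in M2. IL37 had 0, 0.198, 0.801, 0 and 1.36 CPM in M2, against 28.3, 25.7, 30.7, 23.8 and 14.8 CPM in M0 (-5.87 ± 0.49). IL1F10 had 0 to 1.02 CPM in M2 and 11.8 to 39.1 CPM in M0 (-6.60 ± 0.61). IL36G, the IL-36 cytokine of keratinocytes, had 4.1, 14.3, 2.67, 31.4 and 109 CPM in M2, against 5.11, 1.93, 1.64, 1.01 and 20.2 CPM in M0. Its groups overlapped, and the value of 2.39 ± 1.21 was not called (edgeR adjusted p = 0.15). The antagonist IL36RN had 25.1 to 342 CPM in M2 and 104 to 179 CPM in M0, and was not called (0.02 ± 0.68, edgeR adjusted p = 0.98). Of the signalling genes, the kinase IRAK1 (1.13 ± 0.15) and the adaptor MYD88 (0.42 ± 0.16) rose and the kinase IRAK2 fell (-1.42 ± 0.31). The call of MYD88 ended without any 1 of 7 libraries (adjusted p 0.054 to 0.096). The receptor IL1R1 (-0.05 ± 0.17), the inhibitory receptor SIGIRR (-0.03 ± 0.34), the kinases IRAK3 (0.16 ± 0.41) and IRAK4 (-0.29 ± 0.14) and the IL-1 processing enzyme CASP1 (-0.54 ± 0.30) were not called. CASP1 was called without M2 replicate 2 (-0.81, adjusted p = 0.038) and IRAK4 without M0 replicate 5 (-0.37, adjusted p = 0.037). Over the list 7 of 18 genes (38.9%) were higher and 4 (22.2%) lower, against 20.7% and 21.7% of all genes.

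Of the IL-17, IL-22 and IL-23 axis, 11 genes were in the table, and the cytokine genes IL17A, IL17F and IL22 had no row in the table used here. The receptor subunits IL20RA and IL20RB, through which IL-20 family cytokines act on keratinocytes, fell by 1.70 ± 0.19 and 1.56 ± 0.16 on the log2 scale. IL20RA had 13.9 to 25.8 CPM in M2 and 46.9 to 77.3 CPM in M0, without overlap. The adaptor of the IL-17 receptor TRAF3IP2 (0.92 ± 0.15) and the shared receptor subunit IL10RB (0.53 ± 0.13) rose. IL23A, a subunit of IL-23, had 1.3, 7.93, 6.14, 3.07 and 2.03 CPM in M2, against 0.176, 1.72, 0.469, 1.86 and 2.4 CPM in M0 (1.62 ± 0.60, edgeR adjusted p = 0.043), and the call ended without any 1 of 7 libraries (0.051 to 0.14) and under limma-voom. The receptor genes IL17RA (-0.02 ± 0.13), IL17RC (-0.31 ± 0.46), IL22RA1 (-0.90 ± 0.43) and IL12RB1 (-1.06 ± 0.71) were not called. NFKBIZ, a transcriptional regulator induced by IL-17 and IL-1, had 109.7 to 155 CPM in M2 and 29.9 to 131 CPM in M0 and was not called (0.91 ± 0.40, edgeR adjusted p = 0.10; without M0 replicate 1, 1.29 and 0.012).

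In the TNF and NF-κB list 10 of 28 genes (35.7%) were higher and 0 lower, against 20.7% and 21.7% of all genes. Without M2 replicate 4, 6 were higher and 1 lower. TNF itself was low, with 4.97, 5.75, 11.5, 14.2 and 3.73 CPM in M2, against 3.35, 0.215, 0.469, 0.507 and 0.2 CPM in M0 (2.99 ± 0.66, edgeR adjusted p = 0.0029). M0 replicate 1 came close to the lowest M2 library. TNFRSF12A, the receptor of the TNF relative TWEAK, rose by 1.85 ± 0.20, the NF-κB cofactor BCL3 by 1.15 ± 0.15 and the feedback inhibitor TNFAIP3 by 1.47 ± 0.33. Of 13 pattern recognition and inflammasome genes 4 (30.8%) were higher and 2 (15.4%) lower, against 20.7% and 21.7% of all genes. The flagellin receptor TLR5 had 0.216 to 1.07 CPM in M2 and 3.6 to 9.01 CPM in M0 (-3.21 ± 0.45), and the peptidoglycan sensor NOD2 had 14.3 to 24.3 CPM in M2 and 34.6 to 57.8 CPM in M0 (-1.20 ± 0.18). The lipopeptide receptor TLR2 had 5.76 to 15.3 CPM in M2 and 2.99 to 10.9 CPM in M0 (1.21 ± 0.39, edgeR adjusted p = 0.021). Its call ended without M0 replicate 1, 4 or 5 or M2 replicate 4 (0.051 to 0.052). The list's count of higher genes was 2 without M0 replicate 4, M0 replicate 5 or M2 replicate 4. LY96 (0.69 ± 0.18), a partner of the endotoxin receptor, and PYCARD (0.92 ± 0.18), the inflammasome adaptor, rose.

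Among the other chemokines and their receptors 10 of 23 genes (43.5%) were higher and 4 (17.4%) lower, against 20.7% and 21.7% of all genes. Of the 15 that passed a filter of at least 10 counts in 5 libraries, 6 were higher. CCL11 (eotaxin), which attracts eosinophils, had 402, 497, 287, 429 and 129 CPM in M2, against 0.176, 0.429, 0.234, 0.338 and 1 CPM in M0 (9.57 ± 0.55, edgeR adjusted p = 1.1e-06). CCL26, which acts on the same receptor, went the other way, with 0, 0.595, 0.801, 0 and 0 CPM in M2, against 20.8, 10.7, 3.98, 8.78 and 6.61 CPM in M0 (-5.02 ± 0.69). CCL26 had no M2 library over 1 CPM and was listed through M0 alone. The groups of CCL11 did not overlap. CCL20, a chemokine of epithelium for dendritic cells and IL-17-producing T cells, had 34.4 to 68.9 CPM in M2 and 3.71 to 12.7 CPM in M0 (2.75 ± 0.34). CXCL16, a chemokine with a membrane-bound form, rose by 0.75 ± 0.12. The monocyte attractants CCL2 (2.39 ± 0.45), CCL3 (3.0 ± 0.86) and CCL8 (4.08 ± 0.95) rose too. CCL8 was at 22.2 CPM in M2 replicate 4 and at 2.38 to 4.56 CPM in the other M2 libraries, and CCL3 lost its call under limma-voom (adjusted p = 0.19). The other falls named by rule were CX3CL1 (-0.84 ± 0.17), a chemokine tethered to endothelium and epithelium, and the scavenging receptor ACKR4 (-2.80 ± 0.74; -4.91 without M2 replicate 2).

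Prostaglandin and leukotriene genes changed in both directions, with the largest change in PTGS2. PTGS2 (ENSBTAG00000014127), the inducible cyclooxygenase, had 853, 494, 816, 389 and 166 CPM in M2, against 3.7, 1.93, 3.52, 2.53 and 3.8 CPM in M0. The lowest M2 library lay far above the highest M0 library (7.44 ± 0.55, edgeR adjusted p = 9.1e-06). PLA2G4A, the phospholipase that releases arachidonic acid, had 14.9 to 29.2 CPM in M2 and 5.11 to 7.61 CPM in M0 (1.78 ± 0.21). ANXA1, an inhibitor of phospholipase activity that limits inflammation, had 1650.3 to 2468 CPM in M2 and 222 to 308 CPM in M0 (3.01 ± 0.13). Thromboxane synthase TBXAS1 had 1.02 to 4.32 CPM in M2 and 0.469 to 2.53 CPM in M0 (1.39 ± 0.53, edgeR adjusted p = 0.047), and its call ended without any 1 of 7 libraries (0.08 to 0.11).

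Other genes of the same list fell. The constitutive cyclooxygenase PTGS1 had 8.32 to 23.1 CPM in M2 and 21 to 50.9 CPM in M0 (-1.29 ± 0.32), and prostacyclin synthase PTGIS had 0.793 to 4.48 CPM in M2 and 3.8 to 15.9 CPM in M0 (-2.23 ± 0.49). The prostaglandin D synthase PTGDS (-1.51 ± 0.46) fell, and the call ended without M2 replicate 2 (adjusted p = 0.051). The inducible prostaglandin E synthase PTGES had 3.24, 3.77, 4, 3.78 and 8.81 CPM in M2, against 15.5, 12, 4.45, 5.07 and 10.6 CPM in M0 (-1.05 ± 0.38, edgeR adjusted p = 0.038). Its call ended without any 1 of 7 libraries (0.072 to 0.12). The second E synthase PTGES2 (-0.75 ± 0.25), the E2 receptor PTGER4 (-1.02 ± 0.23) and the prostaglandin-degrading HPGD (-0.60 ± 0.17) fell. PTGES2 lost its call without M0 replicate 2 or M2 replicate 4 (0.051 to 0.06), and HPGD in the fit of all 29 libraries (0.19). Leukotriene C4 synthase LTC4S (-1.67 ± 0.48; limma-voom adjusted p = 0.057), the epidermal lipoxygenase ALOXE3 (-2.02 ± 0.57) and the platelet-activating-factor hydrolase PLA2G7 (-2.19 ± 0.34) fell as well. Not called were ALOX5 (-1.60 ± 0.62, edgeR adjusted p = 0.051), which starts leukotriene synthesis, its activator ALOX5AP (-0.67 ± 0.56), the leukotriene hydrolase LTA4H (-0.04 ± 0.30) and the epidermal lipoxygenase ALOX12B (-0.89 ± 1.08). The same held for PTGES3 (0.27 ± 0.12), the reductase PTGR1 (0.38 ± 0.23), the prostacyclin receptor PTGIR (-0.08 ± 0.44) and the phospholipase PLA2G4E (-0.28 ± 0.52). ALOX5 passed the threshold without M0 replicate 3 or M2 replicate 3 (0.012 to 0.021) and under DESeq2 (0.038). ALOX12B was called without M2 replicate 5 (-3.18, adjusted p = 0.0016) and ALOX5AP without M2 replicate 3 (-1.59, adjusted p = 0.012). Over the list 4 of 22 genes (18.2%) were higher and 10 (45.5%) lower, against 20.7% and 21.7% of all genes.

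**Figure D3:**
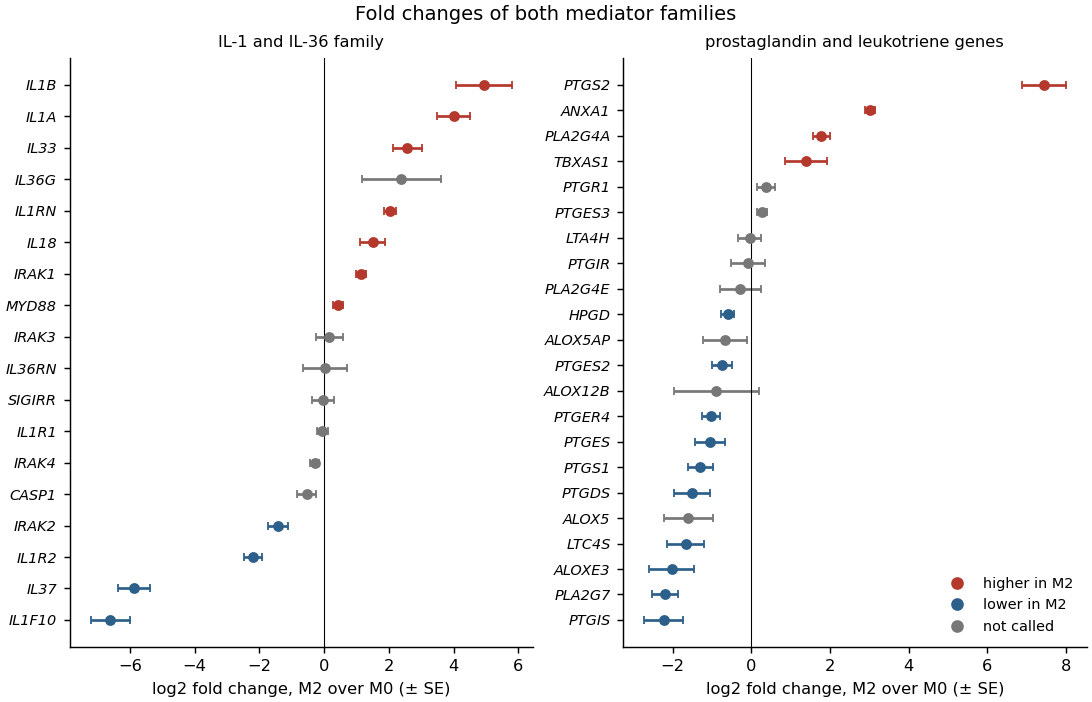
Log2 fold change of M2 over M0 with its approximate standard error for 18 genes of the IL-1 and IL-36 family (left) and 22 prostaglandin and leukotriene genes (right), coloured by call. IL1B and PTGS2 are highest at 4.93 and 7.44, IL37 and IL1F10 lowest on the left at -5.87 and -6.60, and most prostaglandin genes beyond PTGS2, ANXA1, PLA2G4A and TBXAS1 lie at or below 0.

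Of 19 antimicrobial genes 10 (52.6%) were higher and 4 (21.1%) lower, against 20.7% and 21.7% of all genes. Under limma-voom 5 were higher and 5 lower, and without M2 replicate 5 the numbers were 8 and 6. PI3, which encodes the elastase inhibitor elafin, had 298, 525, 268, 1109.9 and 1373 CPM in M2, against 0, 0, 0, 0 and 2.8 CPM in M0 (10.27 ± 1.14, edgeR adjusted p = 0.00016). All M0 counts lay in M0 replicate 5. The beta-defensins TAP and LAP, first described in bovine trachea and tongue, had 41.5 to 1012 and 26.6 to 369 CPM in M2, against 0.176 to 2.81 and 0 to 1.01 CPM in M0 (8.20 ± 1.24 and 7.25 ± 1.22; limma-voom adjusted p 0.08 and 0.092). A gene annotated as beta-defensin 103B-like (LOC789175) was even across the M2 libraries, with 1222, 1226, 1025, 1475 and 1264 CPM in M2, against 31.7, 148, 49.9, 63 and 117 CPM in M0 (3.92 ± 0.43). The calgranulins S100A8, S100A9 and S100A12, which neutrophils and wounded keratinocytes both express, rose by 3.46 ± 0.58, 3.35 ± 0.76 and 3.38 ± 0.32. S100A12 alone reached 12341 to 19401 CPM in M2, with 663 to 1937 CPM in M0.

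Copies of the leukocyte protease inhibitor differed between M2 libraries. SLPI had 76.3, 82.6, 95.1, 54 and 1.36 CPM in M2 and no count in any M0 library, and was at least 561-fold higher in M2, with 3 counts over M0 as the floor (limma-voom adjusted p = 0.13). A second gene annotated as antileukoproteinase (LOC512548) had 8.42, 28.1, 9.88, 12.3 and 368 CPM in M2, against 2.99, 1.5, 5.86, 1.69 and 5.21 CPM in M0 (4.62 ± 1.4, edgeR adjusted p = 0.029). M2 replicate 5 was thus lowest for the first and highest for the second. Without M2 replicate 5 the second had a value of 2.12 (adjusted p = 0.0028), and its call ended without any 1 M0 library (0.053 to 0.066). The elafin-like gene LOC100850808 had 53.9 to 333 CPM in M2 and 0 to 0.528 CPM in M0 (8.88 ± 0.90), and was listed through M2 alone. A tracheal-type lysozyme gene (LOC112446693) had 4.32, 28.7, 57.4, 103 and 390 CPM in M2, against 9.16, 3.22, 3.52, 0.169 and 2.8 CPM in M0 (4.92 ± 1.28, edgeR adjusted p = 0.015; limma-voom, 0.18). Reads can be shared between such close copies.

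Among the antimicrobial genes that fell were LTF, LCN2 and RNASE4. LTF (lactoferrin), an iron-binding protein of secretions and neutrophil granules, had 3.46, 6.54, 10.7, 15.1 and 10.2 CPM in M2, against 84.7, 55.3, 42.9, 164 and 201 CPM in M0 (-3.59 ± 0.57). LCN2, which binds bacterial siderophores, had 0.648 to 1.42 CPM in M2 and 3.52 to 21.2 CPM in M0 (-3.47 ± 0.46). RNASE4, a secreted ribonuclease, fell by 1.95 ± 0.21 on the log2 scale. S100A7 (psoriasin), made by maturing keratinocytes, had 1.94, 57.5, 74.5, 9.91 and 1084 CPM in M2, against 4451, 3319, 6508, 2518 and 4699.9 CPM in M0. Every M2 library lay below every M0 library, yet the spread within M2 was wide and the value of -4.13 ± 1.52 was not called (edgeR adjusted p = 0.059). It was called without M2 replicate 5 (-6.89, adjusted p = 0.0021) and under DESeq2 (0.0025).

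Marker lists of immune cells moved unequally. Of 36 neutrophil symbols 20, and of 42 macrophage and monocyte symbols 13, had no row in the table used here. The counts for each cell type cover the genes with a row alone. Of 16 neutrophil genes 10 (62.5%) were higher and 3 (18.8%) lower, against 20.7% and 21.7% of all genes. Their summed level was 22520.4 to 40917 CPM in M2 and 1226 to 4947 CPM in M0, most of which came from the calgranulins. Outside the calgranulins, the granulocyte growth factor receptor CSF3R had 1.02 to 14.2 CPM in M2 and 0.215 to 2.2 CPM in M0 (2.69 ± 0.66). CHI3L1, a chitinase-like protein that macrophages also make, rose by 2.37 ± 0.38. LTF, IL1R2 and the sorting receptor SORL1 (-1.72 ± 0.25) were the falling members. Of 29 macrophage and monocyte genes 6 were higher, the same 20.7% as of all genes, and 3 (10.3%) were lower. CD68 (1.42 ± 0.42), a lysosomal marker, and the Fc receptor FCGR3A (1.68 ± 0.52) rose, while SPP1 (-3.14 ± 0.60), APOE (-2.44 ± 0.40) and GPNMB (-2.03 ± 0.19), which epithelia or melanocytes also express, fell. The number of higher macrophage genes was 2 without M2 replicate 4 and 11 without M0 replicate 1, and FCGR3A was not called without M2 replicate 4 (1.01, adjusted p = 0.091).

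The lists of lymphocyte genes differed. Of 38 T and natural killer cell symbols 25, and of 30 B and plasma cell symbols 21, had no row in the table used here. Of 13 T and natural killer cell genes edgeR called 0 higher and 0 lower, with 1 at an unadjusted p under 0.05, DESeq2 called 1 higher, and without M2 replicate 1 2 were higher. Their summed level was 33.9 to 117 CPM in M2 and 37.5 to 69.7 CPM in M0. Of 9 B and plasma cell genes 4 (44.4%) were higher and 1 (11.1%) lower, against 20.7% and 21.7% of all genes. Under limma-voom 2 were higher, and without M0 replicate 1 2 were lower. FKBP11 (1.14 ± 0.13) and TXNDC5 (0.74 ± 0.13), secretory pathway genes of plasma and other secreting cells, rose, and PRDM1 (-0.70 ± 0.15; adjusted p = 0.062 in the fit of all 29 libraries), which keratinocytes share, fell. JCHAIN, the joining chain of secreted antibodies, had 22.2 to 81.2 CPM in M2 and 54.8 to 113 CPM in M0 and was not called (-0.75 ± 0.37, edgeR adjusted p = 0.14). The interferon response list had 4 of 41 genes (9.76%) higher and 1 (2.44%) lower, and antigen presentation had 3 of 24 (12.5%) higher and 1 (4.17%) lower. All of these shares were under those of all genes. Without M2 replicate 4 the lower genes numbered 2 and 3 in these lists. The kinase gene EIF2AK2 (1.53 ± 0.34), the nuclease gene ISG20 (1.46 ± 0.31) and the peptide transporter TAP1 (0.81 ± 0.20) rose, the lysosomal reductase IFI30 (-0.61 ± 0.14) fell, and ISG15 had 1.07 to 3.73 CPM in M2 and 0.429 to 1.94 CPM in M0 without a call (0.78 ± 0.49).

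Proteases of wound beds rose with the plasminogen activator system. MMP9, the gelatinase of neutrophils and migrating keratinocytes, had 337, 167, 234, 93.9 and 65 CPM in M2, against 3.87, 0.215, 0.938, 1.86 and 1.2 CPM in M0 (6.71 ± 0.71, edgeR adjusted p = 9.9e-05). MMP12, the macrophage elastase, had 5.42 to 36.8 CPM in M2 and 0 to 1.41 CPM in M0 (5.45 ± 0.65). The collagenase MMP1 had 86.4, 54.5, 55.5, 21 and 1.69 CPM in M2, against 2.47, 0.644, 0.703, 0.338 and 0.2 CPM in M0 (5.58 ± 1.03; limma-voom adjusted p = 0.14). M2 replicate 5 lay within the M0 range. MMP13, a collagenase listed for M2 but not in all 5 tables, had 1.36 to 8.28 CPM in M2 and 2 counts in M0, a ratio of 71.8 (95% counting interval 19.4 to 600.2). PLAUR, the urokinase receptor, had 45.4 to 229.9 CPM in M2 and 0.703 to 4.93 CPM in M0 (5.26 ± 0.59), and urokinase, PLAU, had 77.9 to 279 CPM in M2 and 18.9 to 35 CPM in M0 (2.60 ± 0.32). MMP7, a protease of glandular epithelium, fell (-5.05 ± 0.66), with at most 1.39 CPM in M2 and 7.61 to 24.6 CPM in M0. The inhibitor TIMP4 fell (-2.64 ± 0.71). Over the list of metalloproteinases and inhibitors 13 of 28 genes (46.4%) were higher and 5 (17.9%) lower, against 20.7% and 21.7% of all genes. The number lower was 3 without M0 replicate 4 or M2 replicate 2.

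Matrix genes rose in 21 of 50 cases and fell in 5. CTHRC1, a secreted protein of repairing fibroblasts, had 27.1 to 60.9 CPM in M2 and 3.17 to 12.4 CPM in M0 (2.84 ± 0.39). The matricellular gene THBS2 (2.18 ± 0.29) and the crosslinking enzyme LOXL2 (2.01 ± 0.28) rose, and so did COL5A1 (1.53 ± 0.33). The main fibrillar collagen COL1A1 had 1949.5, 1916, 2564, 2445 and 1773 CPM in M2, against 515, 577, 218, 273 and 2167 CPM in M0. M0 replicate 5 alone lay within the M2 range, and the value of 1.51 ± 0.63 was not called (edgeR adjusted p = 0.088). Without M0 replicate 5 COL1A1 had a value of 2.43 (adjusted p = 0.0003) and COL3A1, at 1.59 ± 0.57 and adjusted p = 0.053 with all libraries, one of 2.35 (0.00052). POSTN, a matricellular gene often high in scars, fell, with 14.6 to 30 CPM in M2 and 33.2 to 52.7 CPM in M0 (-1.09 ± 0.20; adjusted p = 0.059 in the fit of all 29 libraries). MFAP4, an elastic fibre gene, fell by 1.63 ± 0.31 and the microfibril collagen COL6A2 by 1.64 ± 0.41. Falling matrix genes numbered 3 without M0 replicate 2 or 5 or M2 replicate 3 or 4. The summed level of 20 fibroblast genes was 4688 to 6794 CPM in M2 and 1148 to 5870.4 CPM in M0, and 3 were higher and 3 lower. That count was 6 higher and 1 lower without M0 replicate 5, and 6 lower without M0 replicate 3.

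Wound keratinocyte genes held a large part of the M2 transcriptome, with a summed level of 57175 to 114173 CPM in M2 and 3495 to 5639 CPM in M0 over 32 genes. Of these 21 (65.6%) were higher and 2 (6.25%) lower, against 20.7% and 21.7% of all genes. The number lower was 1 without any 1 of M0 replicates 3 to 5 or M2 replicates 1 to 4. KRT6B (ENSBTAG00000038033), a keratin of injured and rapidly dividing epidermis, had 50764, 33476, 22371, 47963 and 47584 CPM in M2, against 34, 368, 124, 109 and 259.7 CPM in M0 (7.82 ± 0.77, edgeR adjusted p = 7.8e-05). Its close copy KRT6A had 20931 to 45151 CPM in M2 and 934 to 2698 CPM in M0 (4.21 ± 0.36), and KRT17, a further wound keratin, had 2141 to 3666 CPM in M2 and 167 to 339 CPM in M0 (3.49 ± 0.21). SFN (stratifin), a cell cycle regulator of keratinocytes, had 3259 to 4061 CPM in M2 and 397 to 572 CPM in M0 (2.93 ± 0.11). GJB2, a connexin of gap junctions that wound edges switch on, had 1765 to 3920.2 CPM in M2 and 61.1 to 182 CPM in M0 (4.81 ± 0.36). The actin bundler FSCN1 of migrating cells rose by 3.05 ± 0.13. A2ML1, a protease inhibitor of upper epidermis, had 81.4 to 277 CPM in M2 and 3 counts in M0, a ratio of 1281 (95% counting interval 438 to 6217). Of the keratins of stem cells and simple epithelium, KRT15 (-6.29 ± 0.55) and KRT19 (-6.84 ± 0.57) fell. M2 replicate 5 was the highest M2 library for KRT6A, KRT17, GJB2 and A2ML1 and lay within the range of the other M2 libraries for KRT6B.

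Epidermal differentiation split the M2 libraries. Basal keratin KRT14 had 18649.8, 17559.5, 13473, 16926 and 22299 CPM in M2, against 3084, 3504, 2676, 2399.6 and 2886 CPM in M0 (2.61 ± 0.14, edgeR adjusted p = 7.7e-09), and its partner KRT5 rose by 1.47 ± 0.19. KRT1, the first keratin of maturing cells, had 69.8, 1827, 1266, 3182 and 34476 CPM in M2, against 16675, 16501, 24213, 13788 and 20449.6 CPM in M0. KRT10, its partner, had 218, 1847, 1590.2, 3035 and 38139.6 CPM in M2, against 12591, 12869, 17187, 11055 and 21387 CPM in M0. In both genes M2 replicate 5 lay above every M0 library and the other M2 libraries below all of them. With all libraries neither was called (KRT1 -1.17 ± 1.27, KRT10 -0.74 ± 1.18), and without M2 replicate 5 both were (KRT1 -3.52, adjusted p = 0.019; KRT10 -3.16, adjusted p = 0.0093). LOR (loricrin), the main cornified envelope protein of human epidermis, had 0.216, 0.595, 0.267, 0 and 12.2 CPM in M2, against 7.75, 5.79, 16.2, 7.94 and 11.6 CPM in M0. It had a value of -2.09 ± 1.03 that was not called, and one of -4.99 (adjusted p = 6.3e-06) without M2 replicate 5.

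Over the lists, 13 of 25 basal and suprabasal genes were higher and 3 lower, and 10 were lower without M2 replicate 5. Desmosomal DSC2 (5.39 ± 0.36) and PKP1 (2.28 ± 0.20) rose and the tight junction gene CLDN1 (-2.02 ± 0.41) fell. Of 28 cornified envelope and desquamation genes 4 (14.3%) were higher and 6 (21.4%) lower, against 20.7% and 21.7% of all genes. Without M2 replicate 5 15 were lower. TGM3, a protein-crosslinking enzyme, had 739, 777, 612, 884 and 812 CPM in M2, against 31.5, 29.2, 28.4, 15.5 and 37 CPM in M0 (4.76 ± 0.21, edgeR adjusted p = 6.9e-09), so that its rise was even across M2 libraries. KLK10, a kallikrein protease, rose by 1.56 ± 0.14. The falls included HAL (-5.45 ± 0.75), which makes urocanic acid from histidine, the deiminase PADI3 (-3.56 ± 0.56) and the crosslinking enzyme TGM5 (-3.34 ± 0.60). CASP14, a caspase of cornification, had 305, 927, 496, 885 and 3938 CPM in M2, against 119, 329.7, 403, 146 and 643 CPM in M0 and was not called (2.0 ± 0.81, edgeR adjusted p = 0.081; DESeq2, 0.019).

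**Figure D4:**
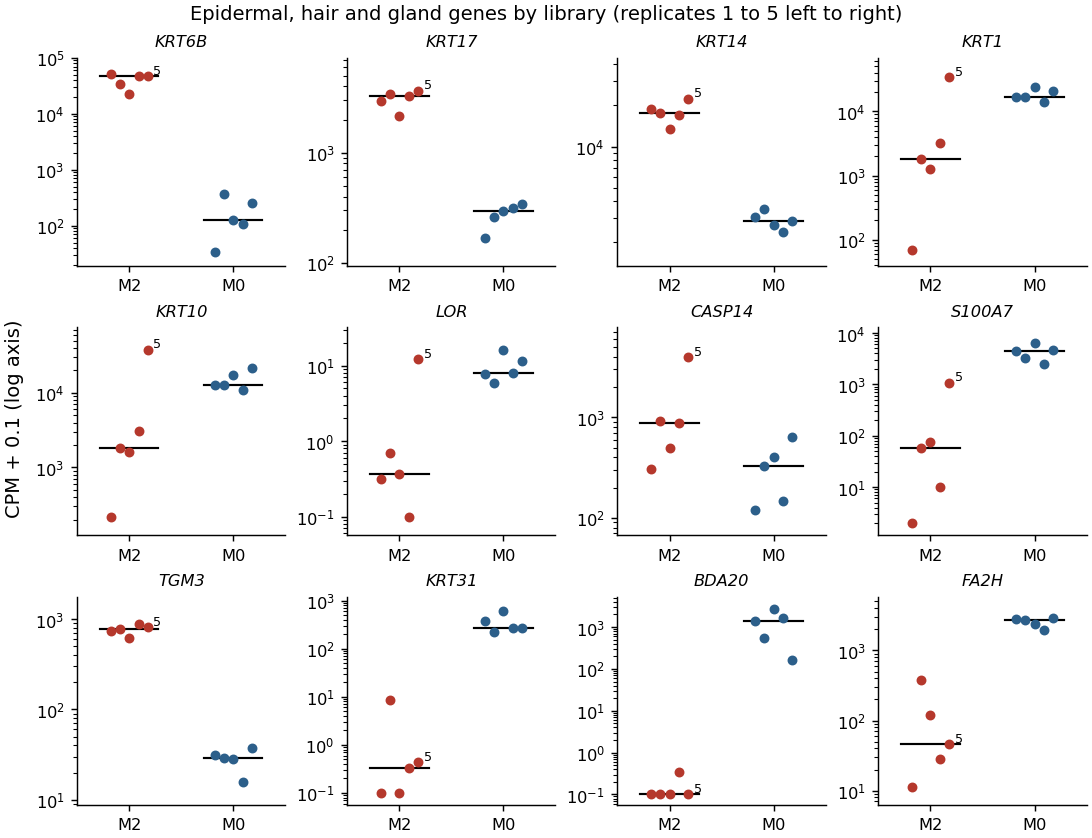
Level of 12 epidermal, hair and gland genes in each library (CPM plus 0.1, log axis), M2 left and M0 right, replicates 1 to 5 from left to right within a group, with a bar at the median and M2 replicate 5 marked. KRT6B, KRT17, KRT14 and TGM3 are high in every M2 library, KRT1, KRT10 and LOR are high in M2 replicate 5 alone of the M2 libraries, and KRT31, BDA20 and FA2H are low in all 5 M2 libraries.

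Lipid genes of barrier and sebaceous glands fell. Of 24 barrier lipid genes 13 (54.2%) were lower and 3 (12.5%) higher, and 17 were lower without M2 replicate 5. Of 26 sebaceous gland lipid genes 16 (61.5%) were lower and 6 (23.1%) higher. The shares of all genes were 21.7% lower and 20.7% higher. Of the sebaceous list, 2 genes had no M0 library over 1 CPM and 1 had no M2 library over it. FA2H, which makes hydroxylated fatty acids for ceramides, had 11, 377, 119, 28.3 and 46.4 CPM in M2, against 2812, 2682, 2397, 1936 and 2928 CPM in M0 (-4.45 ± 0.96, edgeR adjusted p = 0.0061). M2 replicate 2 kept the highest level of the M2 libraries. ELOVL3, an elongase for the long-chain fatty acids of sebum, had 0.216, 211, 75, 8.97 and 16.3 CPM in M2, against 1606, 1398, 1378, 1205 and 1889.7 CPM in M0 (-4.58 ± 1.24). The ceramide genes CERS2 (-2.22 ± 0.13), ASAH1 (-1.93 ± 0.15) and SPTLC1 (-0.90 ± 0.12) fell, while SPTLC2 (1.15 ± 0.22), the partner of SPTLC1, rose. PPARG, the nuclear receptor of sebocyte and fat cell formation, had 0.216 to 5.35 CPM in M2 and 37.5 to 58.5 CPM in M0 (-4.23 ± 0.51). FABP4, a fatty acid carrier of fat cells, macrophages and vessels, moved against it, with 5821, 6212, 4350.2, 5109 and 8726 CPM in M2, against 43.8, 266, 233, 46.3 and 539 CPM in M0 (4.74 ± 0.79, edgeR adjusted p = 0.0016). The desaturase SCD (2.14 ± 0.29) and the elongase ELOVL5 (1.77 ± 0.12) rose as well.

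Hair genes fell almost without exception, with 31 of 33 (93.9%) lower and 0 higher, against 21.7% and 20.7% of all genes. Their median log2 change was -6.39. Of the 33 genes, 6 had no M2 library over 1 CPM and were listed through M0 alone. The list's summed level was 42.1, 572, 44.3, 43.2 and 107 CPM in M2 replicates 1 to 5, against 11308, 10105, 15631, 10195 and 8938 CPM in M0. M2 replicate 2 held most of what was left. KRT31, a hair shaft keratin, had 0, 8.32, 0, 0.236 and 0.339 CPM in M2 and 227 to 607 CPM in M0 (-7.43 ± 1.0), and KRT25 of the inner root sheath had 0.216, 80.5, 0, 0 and 2.37 CPM in M2 and 510.3 to 1102 CPM in M0 (-5.55 ± 1.57; -10.49 without M2 replicate 2). KRTAP4-7 (-7.71 ± 0.80) and KRTAP12-2, keratin-associated proteins that embed hair keratins, were close to 0 in M2. KRTAP12-2 had 2 counts in M2, and M0 over M2 gave a ratio of 379.9 (95% counting interval 105 to 3142). DAPL1, an epithelial differentiation gene, had 0 to 2.03 CPM in M2 and 66.5 to 147 CPM in M0 (-7.62 ± 0.62).

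Apocrine gland products were nearly absent from M2. BDA20 (ENSBTAG00000016820), a lipocalin known as a cattle dander allergen, had 1 count over the M2 libraries, against 1433, 558, 2666, 1603 and 160 CPM in M0, and the ratio of M0 to M2 was 26165 (95% counting interval 4696 to 1033510). MGC151921, an odorant-binding-protein-like lipocalin, had no count in M2 and 147 to 263 CPM in M0, and was at least 1386-fold lower in M2, with 3 counts over M2 as the floor. Further lipocalin genes, annotated as Equ c 1-like (LOC783399) and Bos d 2 (LOC100300091), had no count in M2 and were at least 256-fold and 344-fold lower. A prolactin-inducible protein homolog (LOC104972276) had 2 counts in M2 and 116 to 397 CPM in M0, a ratio of M0 to M2 of 2338 (647 to 19313). The secretoglobins SCGB1D and SCGB2A2 and the mucin-like MUCL1 went with them. SCGB1D had 3 counts in M2 and a ratio of M0 to M2 of 1219 (417 to 5914), MUCL1 had 1 count and a ratio of 1945 (349 to 76861), and SCGB2A2 had 0 to 4.95 CPM in M2 and 167 to 1356 CPM in M0 (-7.77 ± 0.94). Limma-voom gave BDA20 and MUCL1 adjusted p of 0.052 and 0.066. The lipocalins are similar in sequence and may share reads. The cytochrome gene CYP2B6 had no count in M2 and 29.8 to 84.6 CPM in M0 (at least 356-fold lower). CYP1A1, a detoxifying enzyme induced by aromatic compounds, was at 835 CPM in M0 replicate 3 and at 0.801 to 17.1 CPM in the other M0 libraries, with 0 to 1.07 CPM in M2 (-8.56 ± 2.49; -4.51 without M0 replicate 3), and its call ended without M2 replicate 1, 2, 4 or 5 (adjusted p 0.054 to 0.057) and under limma-voom (0.44). Of the 22 sweat and apocrine gland genes, 7 had no M2 library over 1 CPM and were listed through M0 alone. Over the whole list 15 of 22 (68.2%) were lower and 2 (9.09%) higher, against 21.7% and 20.7% of all genes. The higher genes were the carbonic anhydrase CA2 (1.61 ± 0.35) and the chloride channel ANO1 (1.70 ± 0.25).

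**Figure D5:**
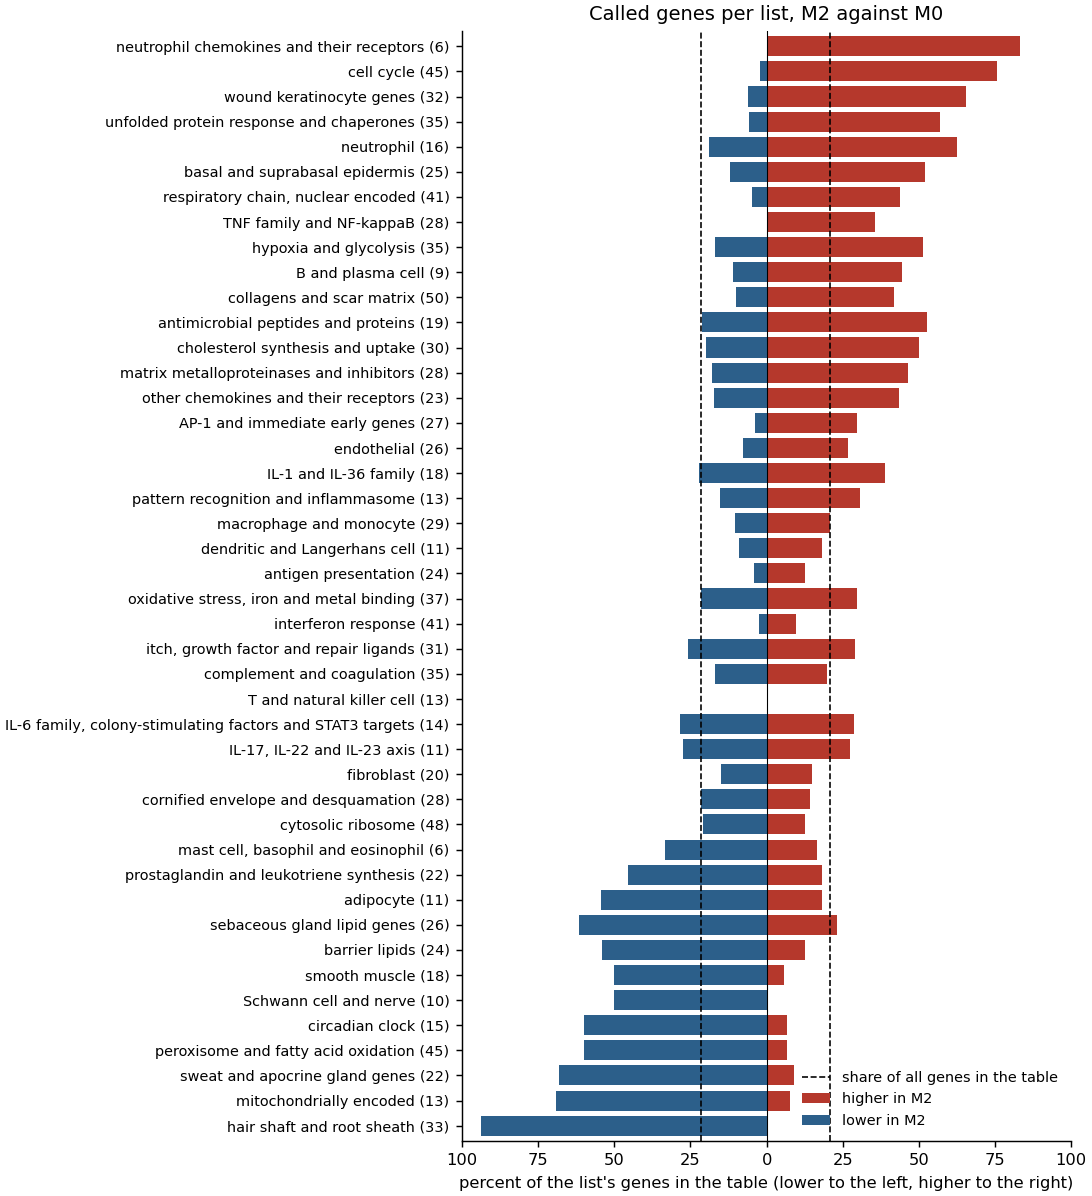
Percent of each gene list that was called higher (right) or lower (left) in M2, for lists with at least 6 genes in the table, whose number stands in brackets, and dashed lines at the share of all genes. Hair, gland, clock and peroxisome lists lie to the left, and neutrophil chemokine, cell cycle and wound keratinocyte lists to the right, beyond the 20.7% and 21.7% of all genes.

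Metabolic genes changed in several directions. Of 35 hypoxia and glycolysis genes 18 (51.4%) were higher and 6 (17.1%) lower, against 20.7% and 21.7% of all genes. HIF1A, the oxygen-regulated transcription factor, had 414 to 582 CPM in M2 and 96.8 to 123 CPM in M0 (2.16 ± 0.12, edgeR adjusted p = 1.4e-08). The glycolytic genes PGAM1 (2.05 ± 0.11) and GAPDH (1.81 ± 0.11) rose, and the first hexokinase step was covered by HK2, with 7.55 to 31.8 CPM in M2 and 0.844 to 1.4 CPM in M0 (3.88 ± 0.41). PDK1 (-0.93 ± 0.15) and EGLN1 (-0.85 ± 0.12), both hypoxia-induced genes, fell. Of 30 cholesterol genes 15 were higher and 6 lower. The synthesis enzymes HMGCS1 (2.48 ± 0.13) and CYP51A1 (2.06 ± 0.13) rose. The exporter ABCA1 (-1.77 ± 0.37) and the regulator SREBF1 (-2.14 ± 0.21) fell. Of 45 peroxisome and fatty acid oxidation genes 27 (60.0%) were lower and 3 (6.67%) higher. PEX16 (-2.62 ± 0.17), ECH1 (-2.16 ± 0.20) and HADH (-1.44 ± 0.15) were among the falls. PDK4, which keeps pyruvate out of mitochondria during fat burning, had 3.89 to 26.4 CPM in M2 and 134 to 222 CPM in M0 (-4.03 ± 0.47).

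Mitochondrial genes were divided by where they are encoded. Of 41 nuclear genes of the respiratory chain 18 (43.9%) were higher and 2 (4.88%) lower. Of 13 genes of the mitochondrial DNA, in contrast, 1 (7.69%) was higher and 9 (69.2%) lower. ATP5MC3 (0.96 ± 0.11), a subunit of ATP synthase, rose, and ND3 of complex I had 5777 to 7349.8 CPM in M2 and 10652 to 14798 CPM in M0 (-0.98 ± 0.10). ND6, the only complex I gene on the light strand, had 10.7 to 23.1 CPM in M2 and 4.6 to 9.79 CPM in M0 (1.06 ± 0.27). Of 48 cytosolic ribosomal protein genes 6 (12.5%) were higher and 10 (20.8%) lower, against 20.7% and 21.7% of all genes. These counts were small in effect, as RPL38 (0.64 ± 0.11) and RPS7 (-0.41 ± 0.09) show. The number of ribosomal protein genes called lower was 6 without M0 replicate 2 or 3 or M2 replicate 2 or 4, and the number called higher was 3 without M0 replicate 1 or 2 or M2 replicate 5. In the stress list of unfolded protein response genes and chaperones 20 of 35 (57.1%) were higher and 2 (5.71%) lower. The number lower was 1 without M2 replicate 1 or 2. The cytosolic chaperone HSPA8 had 1920.3 to 2753 CPM in M2 and 383 to 684 CPM in M0 (1.96 ± 0.15), and CRYAB (-1.4 ± 0.17), a small heat shock protein of muscle and nerve, fell. Thioredoxin TXN (2.29 ± 0.17) and the peroxidase GPX1 (2.11 ± 0.18) rose, and catalase CAT (-1.08 ± 0.13) and the iron exporter SLC40A1 (-2.06 ± 0.23) fell. In their list of 37 oxidative stress and metal genes 11 (29.7%) were higher and 8 (21.6%) lower, against 20.7% and 21.7% of all genes.

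Most cell cycle genes rose, while growth factor ligands were called in both directions, at shares nearer those of all genes. Of 45 cell cycle genes 34 (75.6%) were higher and 1 (2.22%) lower, against 20.7% and 21.7% of all genes. Cyclin B1, CCNB1, had 17.6 to 31.1 CPM in M2 and 3.38 to 7.72 CPM in M0 (1.96 ± 0.24), the centromere histone CENPA rose by 1.82 ± 0.19 and thymidine kinase TK1 by 1.52 ± 0.17. UBE2T, a ubiquitin-conjugating enzyme of DNA repair, was the 1 lower gene (-0.75 ± 0.19). GAL, the neuropeptide galanin, had 10.2 to 64.4 CPM in M2 and 0 to 0.644 CPM in M0 (6.58 ± 0.76). AREG (amphiregulin), a ligand of the epidermal growth factor receptor, had 66.1 to 145 CPM in M2 and 8.91 to 13.8 CPM in M0 (3.37 ± 0.20). Placental growth factor PGF (2.4 ± 0.28), which acts on vessels, rose. The Wnt inhibitor DKK2 (-2.81 ± 0.29), the hair papilla ligand BMP4 (-1.41 ± 0.18) and the activin subunit INHBB (-1.74 ± 0.24) fell, whereas the activin subunit INHBA (2.62 ± 0.34) rose. Over the list of itch, growth factor and repair ligands 9 of 31 were higher and 8 lower.

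Immediate early and clock genes differed less evenly. Of 27 AP-1 and immediate early genes 8 (29.6%) were higher and 1 (3.7%) lower, against 20.7% and 21.7% of all genes. The number lower was 2 without M2 replicate 3 and 3 without M2 replicate 5. FOS had 5.42 to 11.5 CPM in M2 and 0.644 to 2.11 CPM in M0 (2.34 ± 0.34), JUNB (1.55 ± 0.11) and IER3 (1.60 ± 0.15) rose and JUND (-0.49 ± 0.15; adjusted p = 0.051 in the fit of all 29 libraries) fell. Of 15 circadian clock genes 9 (60.0%) were lower and 1 (6.67%), BHLHE40 (0.96 ± 0.14), was higher. The clock output gene DBP had 1.94 to 5.42 CPM in M2 and 12.9 to 23.4 CPM in M0 (-2.62 ± 0.29), and the clock repressor CIART (-2.61 ± 0.25) and the core activator ARNTL (-1.4 ± 0.23) fell too. The labels give no hour of sampling, and farm and slaughterhouse collection cannot be told apart from disease in these genes.

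Of 26 endothelial genes 7 (26.9%) were higher and 2 (7.69%) lower, against 20.7% and 21.7% of all genes. PLVAP of fenestrated vessels had 59.6 to 92.1 CPM in M2 and 19.8 to 34.3 CPM in M0 (1.45 ± 0.17), and the apelin receptor APLNR (2.13 ± 0.32) and endoglin ENG (0.92 ± 0.21) rose. ANGPT2 (-0.85 ± 0.20), which loosens vessels, and VWF (-0.67 ± 0.22), the platelet-binding protein, fell, and VWF lost its call without M0 replicate 3 or 4 or M2 replicate 2 or 4 (adjusted p 0.063 to 0.069), which left 1 lower gene in the list. Genes on the lists of smooth muscle, nerve, pigment and fat cells were called lower more often than higher. Of 18 smooth muscle genes 9 were lower and 1 higher, with DES (desmin) at 2.59 to 10.1 CPM in M2 and 10.5 to 44.7 CPM in M0 (-2.11 ± 0.47). Of 10 Schwann cell and nerve genes 5 were lower and 0 higher, and 3 of 8 were lower in the fit of all 29 libraries. Both melanocyte genes in the table fell, the pigment cell factor MITF by 1.53 ± 0.32 and the stem cell factor receptor KIT by 1.65 ± 0.24 on the log2 scale. KIT is also on the mast cell list, and 13 of 15 melanocyte symbols had no row. Of 11 adipocyte genes 6 (54.5%) were lower and 2 (18.2%), FABP4 and the lipoprotein lipase LPL (0.91 ± 0.31), higher. LPL lost its call without any of 5 libraries (0.057 to 0.069). The adipocyte list's summed level was nonetheless 4439 to 8796 CPM in M2 and 327 to 966 CPM in M0, with FABP4 alone at a mean of 6044 CPM in M2. Of its 18 symbols 7 had no row. Complement and coagulation genes numbered 7 higher and 6 lower of 35 (10 lower under DESeq2), shares near those of all genes, with tissue factor F3 (-2.29 ± 0.26) and the complement shield CD55 (-1.59 ± 0.24) falling.

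Genes absent from at least 1 of the other tables numbered 418, of which 60 (14.4%) were higher and 22 (5.26%) lower in M2, against 20.7% and 21.7% of all genes. Among these 418 genes 0 had all 5 M0 libraries over 1 CPM, so each was listed partly through M2 libraries, and nothing is read from the balance of the calls. Of them 35 were listed for M2 alone. APOBEC3Z1, a cytidine deaminase of antiviral defence, had 23.5, 14.7, 7.21, 12.5 and 7.79 CPM in M2 and no count in M0, and was at least 118-fold higher, with 3 counts over M0 as the floor. RETN (resistin), a secreted protein of mouse fat cells and human monocytes, had 1.07 to 4.36 CPM in M2 and 1 count in M0, a ratio of 73.1 (95% counting interval 12.6 to 2934). PRSS35, a secreted serine protease-like protein, had 9.83 to 21.2 CPM in M2 and 0.215 to 0.88 CPM in M0 (4.90 ± 0.38). The falls with the smallest p were RSPO1 (-2.99 ± 0.74), an amplifier of Wnt signals, ITGBL1 (-2.56 ± 0.71), KANK4 (-2.05 ± 0.58), DNAJC6 (-2.17 ± 0.59) and TIMP4, named above. All 5 had at most 7.29 CPM in any M0 library and overlapping groups, and limma-voom ended the calls of ITGBL1 (adjusted p = 0.059) and DNAJC6 (0.07).

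Set directly against M1, M3 and M4.1 lesions, without M0 in the contrast, M2 had no gene at an adjusted p under 0.05 (M4 was not compared here). The 29 libraries were fitted in 1 edgeR model over 10371 genes, and 0 genes (0.0%) were called in M2 against M1, in M2 against M3 and in M2 against M4.1. At an unadjusted p under 0.05 there were 398 genes (3.84%) for M1, 894 (8.62%) for M3 and 236 (2.28%) for M4.1, and DESeq2 called 0 in each as well, with 428, 980 and 248 genes at an unadjusted p under 0.05. The smallest adjusted p was 0.55, for M2 against M3. These counts do not show that the stages are alike. CXCL8 had 14.5 to 337 CPM in M2, against 6.31 to 384 CPM in M1, 6.92 to 226 CPM in M3 and 91.1 to 319.7 CPM in M4.1, and the log2 difference of M2 from each was 0.01 ± 0.87, 0.36 ± 0.87 and -0.44 ± 0.92. PTGS2 had 148 to 763 CPM in M2, against 41.3 to 446 CPM in M1, 5.08 to 532 CPM in M3 and 417 to 897 CPM in M4.1. KRT10 in M2, at 196 to 34029 CPM, had a log2 difference of -2.25 ± 1.16 from M3, where it had 4959.7 to 84582 CPM (edgeR adjusted p = 0.58). CCL11 had 115 to 445 CPM in M2 and 88.1 to 169 CPM in M3, a log2 difference of 1.16 ± 0.45 (adjusted p = 0.55). Levels in this paragraph come from the scaling of all 29 libraries and differ slightly from those above.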

How the data were processed

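QuantSeq 3′ RNA-seq libraries of skin biopsies were compared, 5 M2 and 5 M0. Per the submitters' processing notes, the tools included RSEM 1.3.1, STAR, edgeR, cutadapt 2.8 and FastQC 0.11.7, and the build was ARS-UCD1.2. The deposited whole-number count per gene was used, and it was made by the authors. The deposited normalized signal and the deposited p-value columns were used as checks alone: the signal was recomputed as TMM-scaled CPM and the p-values within 1.14e-10. Each listed gene was over 1 CPM in at least 5 of the 10 libraries. Whether counting used strand is not given in the sources used here.

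M2 was tested against M0 with edgeR 4.0.16 (R 4.3.3; quasi-likelihood, TMM, robust option, Benjamini-Hochberg adjustment over 11047 genes). A change is M2 over M0, and adjusted p under 0.05 is a call. An error after ± is an approximate standard error, the size of the log2 change divided by the square root of the F statistic. M2 was set against M1, M3 and M4.1 in 1 fit of 29 libraries over 10371 genes. DESeq2 1.42.0, limma 3.58.1 (voom), RLE scaling, other filters, a test against a fold of 1.5, a replicate block and leaving out each library were alternatives. Where a group held no count, a bound uses 3 counts over the group. Where it held 1 to 3 counts, the ratio has an exact 95% counting interval. The fit was tested on counts simulated with the library sizes and spread of M2 and M0. There 45 of 109 genes changed 2-fold and 74 of 91 changed 4-fold were recovered, and 11 of 130 calls were of unchanged genes. The simulation changed far fewer of the 11047 genes than were called in the data. The recovered shares therefore do not carry over to the real comparison.

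Gene lists, members and named genes were chosen with earlier results of these data known. Named were the 10 largest rises and falls (calls that carry a symbol and whose mean level exceeds the median gene's), up to 3 called genes each way per list by smallest p, every listed gene of the neutrophil chemokine, IL-1, IL-17 and prostaglandin lists, and 5 called genes each way among those absent from another table. Some genes that this rule covers are not reported here. Genes outside it were chosen after their values were seen. These are LAP, MMP1, GJB2, HK2, INHBA, ISG15, JCHAIN, CASP14, ARNTL, TNFAIP3, LOR, S100A7, S100A8, S100A9, CCL2, CCL3, CCL8, COL1A1, COL3A1, COL5A1, KRT1, KRT5, KRT6A, KRT10, KRT17, KRT25, KRT31, FA2H, ELOVL3 and the genes given by LOC identifiers. Of 635 genes without a symbol, 256 were named through RefSeq and 379 by their ID.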

Additional observations from a re-analysis of the deposited data

Results flagged for a closer look

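Within each group, the library farthest from the others was set against the group's range on the scale of log2(CPM + 1) for each gene named in the text. Of 490 groups tested, 37 held a library whose gap to its nearest neighbour passed Dixon's 95% critical value, and chance alone marks about 1 in 20 groups. M2 replicate 5 accounts for 8 of them. Where the other 4 libraries held no count, any count marks the library: BDA20, MUCL1 and RETN rest on 1 count each, and KRTAP12-2 and MMP13 on 2. No explanation was weighed. M2 replicate 1 stood apart with LY96 at 42.8 CPM (other M2 libraries 27.9 to 31.4) and PDK1 at 13.2 CPM (other M2 libraries 20 to 20.3). M2 replicate 2 stood apart with ACKR4 at 2.38 CPM (other M2 libraries 0 to 0.267), KRT25 at 80.5 CPM (other M2 libraries 0 to 2.37) and KRT31 at 8.32 CPM (other M2 libraries 0 to 0.339). The same library had KRTAP12-2 at 0.396 CPM (other M2 libraries 0). M2 replicate 4 stood apart with BDA20 at 0.236 CPM (other M2 libraries 0), CCL8 at 22.2 CPM (other M2 libraries 2.38 to 4.56) and FCGR3A at 11.3 CPM (other M2 libraries 2.59 to 3.05). It did so also with IRAK3 at 4.25 CPM (other M2 libraries 1.59 to 1.87) and MUCL1 at 0.236 CPM (other M2 libraries 0). M2 replicate 5 stood apart with COL5A1 at 68.1 CPM (other M2 libraries 142 to 173), IL1F10 at 1.02 CPM (other M2 libraries 0 to 0.198) and IL1R2 at 7.11 CPM (other M2 libraries 21.4 to 29.3). It did so also with LOR at 12.2 CPM (other M2 libraries 0 to 0.595), LOXL2 at 13.2 CPM (other M2 libraries 32.9 to 42.7) and MMP12 at 5.42 CPM (other M2 libraries 24.8 to 36.8). Further genes of this library were PTGES at 8.81 CPM (other M2 libraries 3.24 to 4) and SLPI at 1.36 CPM (other M2 libraries 54 to 95.1). M0 replicate 1 stood apart with ARNTL at 11.6 CPM (other M0 libraries 19 to 22.7), CXCL2 at 1.76 CPM (other M0 libraries 0.234 to 0.429) and MMP13 at 0.352 CPM (other M0 libraries 0). Its level of TNF was high too, at 3.35 CPM (other M0 libraries 0.2 to 0.507). M0 replicate 2 stood apart with FOS at 0.644 CPM (other M0 libraries 1.58 to 2.11), TIMP4 at 0.858 CPM (other M0 libraries 3.21 to 4.4) and TLR2 at 10.9 CPM (other M0 libraries 2.99 to 3.71). M0 replicate 3 stood apart with EGLN1 at 220.3 CPM (other M0 libraries 174 to 183), ITGBL1 at 0.469 CPM (other M0 libraries 5.36 to 6.59) and KANK4 at 0.703 CPM (other M0 libraries 3 to 3.7). It did so also with PLAUR at 0.703 CPM (other M0 libraries 3.2 to 4.93) and THBS2 at 5.86 CPM (other M0 libraries 15.5 to 20.2). M0 replicate 4 stood apart with RETN at 0.169 CPM (other M0 libraries 0) and SCGB1D at 473 CPM (other M0 libraries 68.8 to 111). M0 replicate 5 stood apart with CTHRC1 at 12.4 CPM (other M0 libraries 3.17 to 4.29), FKBP11 at 27.6 CPM (other M0 libraries 34.9 to 38) and PI3 at 2.8 CPM (other M0 libraries 0). TNFRSF12A was high there as well, at 14 CPM (other M0 libraries 7.57 to 8.44).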

How the results depend on the processing

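The counts of 2287 higher and 2398 lower genes in M2 moved by less than 1.5 times under RLE scaling, other filters, DESeq2, limma-voom, all 29 libraries and the fit without the robust option. The test against a fold of 1.5 called 995 higher and 1126 lower genes and ended the call of 33 named genes. Leaving out each library in turn gave 2073 to 2295 higher and 2074 to 2438 lower genes. M2 against M1, M3 and M4.1 gave 0 called genes in each alternative run, and 0 when any library was left out. A replicate block called 2073 higher and 2218 lower genes. Deviations of same-numbered M2 and M0 libraries correlated at -0.0748, 0.0456, -0.126, 0.0626 and 0.126, and those of differently numbered ones at -0.124 to 0.138. These values gave no sign of pairing by number, but so few libraries cannot exclude it. Of 215 named genes that were called, 180 kept the call under every alternative other than the test against a fold of 1.5. The reversed values were all of uncalled genes. IL36RN was at -0.63 under limma-voom and -0.53 with the replicate block. With 1 library left out the values spanned -0.63 to 0.29 for IL36RN, -0.08 to 0.03 for IL17RA, -0.17 to 0.05 for IL1R1, -0.21 to 0.28 for IRAK3, -0.34 to 0.1 for LTA4H, -0.52 to 0.1 for PLA2G4E, -0.33 to 0.17 for PTGIR and -0.26 to 0.16 for SIGIRR. The cause was not tested.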

Other observations

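Genes without a symbol in the deposited table, named here through RefSeq, held further large rises. A gene annotated as serpin B3-like (LOC107131803), of the protease inhibitor family that marks squamous epithelium, had 58.1, 37.1, 60.9, 35.2 and 58.6 CPM in M2, against 2.11, 1.29, 2.34, 1.69 and 1.2 CPM in M0 (4.83 ± 0.25, edgeR adjusted p = 6.9e-09). Its M2 libraries were close to each other, and the groups did not overlap. An interstitial collagenase-like gene (LOC112441463) had 108, 79.7, 126, 29.7 and 13.6 CPM in M2, against 0.176, 1.72, 0, 1.35 and 1.4 CPM in M0 (6.21 ± 0.87), and it may share reads with MMP1. A further lysozyme gene (LOC781146) had 0.648, 11.1, 8.81, 30 and 112 CPM in M2, against 0.88, 0, 0.938, 0 and 1.4 CPM in M0, so that M2 replicate 1 lay within the M0 range (5.6 ± 1.44, edgeR adjusted p = 0.014; limma-voom, 0.27).

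Of 11 dendritic and Langerhans cell genes 2 (18.2%) were higher and 1 (9.09%) lower, both under the 20.7% and 21.7% of all genes. Of 6 mast cell, basophil and eosinophil genes 1 (16.7%) was higher and 2 (33.3%) lower. Nothing about these cells is read from such small counts. A further 19 of 30 and 23 of 29 symbols of these lists had no row in the table used here. EPCAM, an adhesion molecule of glandular and follicular epithelium and of Langerhans cells, had 11.2, 53.7, 26.2, 10.1 and 16.6 CPM in M2, against 347, 393, 362, 383 and 504 CPM in M0 (-4.06 ± 0.48). FCER1A, the IgE receptor chain of mast and dendritic cells, had 4.54 to 9.91 CPM in M2 and 0.469 to 4.93 CPM in M0 (1.2 ± 0.42, edgeR adjusted p = 0.034). Its call ended without M0 replicate 4 or 5 or M2 replicate 3 or 4 (0.053 to 0.086).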
